A study of Mus musculus with 7 samples.

Results

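The genes described here are 36 chaperones, sensors and transcription factors of the endoplasmic reticulum (ER) stress and heat shock responses, out of 32285 gene rows in single-nucleus RNA matrices from mouse brain. They were chosen by name: every row whose symbol is on a fixed list was taken, whatever its counts. The 36 symbols matched 37 rows, because Ddit3 is listed under 2 identifiers. The second Ddit3 identifier held 0 UMIs (unique molecular identifiers, which mark single RNA molecules) in all 7 libraries, so Ddit3 below is ENSMUSG00000025408. By role the list holds 13 ER folding chaperones and their partners, 6 sensors, transcription factors and signalling genes of the unfolded protein response (UPR), 3 genes of ER-associated degradation, 9 cytosolic chaperones of the HSP70, HSP90 and HSP110 families and their partners, 2 genes of the mitochondrial chaperonin, 2 small heat shock proteins and 1 heat shock transcription factor.

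When unfolded proteins collect in the ER, membrane sensors such as those encoded by Ern1 and Atf6 activate transcription factors, among them XBP1, ATF6 itself and ATF4. These raise the genes of ER chaperones, of disulfide isomerases and of the machinery that returns misfolded proteins to the cytosol for degradation, and under lasting stress they raise Ddit3, which encodes CHOP. In the cytosol, misfolded proteins release heat shock factor 1, which raises HSP70, HSP90, HSP110 and small heat shock protein genes. Both responses have been studied widely in brains with amyloid plaques. Nuclear RNA, as measured here, reports on transcripts in the nucleus and not on the amount of chaperone protein.

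All mice carried 5xFAD transgenes on 1 chromosome copy (5xFAD +/-), a line that forms amyloid plaques, and were 6 months old. At 4 months each had received an adeno-associated virus (AAV) by retro-orbital injection, either a control AAV (3 mice: a male and a female of batch 1, a male of batch 2) or an ANGPT2 AAV (4 mice: a male and a female in each batch). ANGPT2 encodes angiopoietin-2, which endothelial cells release and which binds their receptor TIE2. The promoter and the dose of the vectors are not given in the sources used here, no uninjected or plaque-free mice are among the samples, and the tissue is labelled as subcortex, thalamus and hippocampus. The batch is the replicate number that the labels give. The comparison asks whether the stress genes differ between mice that received the ANGPT2 AAV and mice that received the control AAV. With 1 library per mouse, p-values reflect the spread between mice within a group.

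The 7 libraries held 25466033 to 100529717 UMIs, and batch 2 was the shallower batch. After removal of called doublets 54230 nuclei remained, and 13 classes were named from marker genes, from 154 committed oligodendrocyte precursors to 18867 excitatory neurons. Nuclei of unnamed clusters, 4.56% to 30.6% per library, count in the whole-library values alone. A cluster of 1205 nuclei with oligodendrocyte markers was among them, because its leading genes held more markers of another class, and so was a cluster of 5887 nuclei with few UMIs that Ttr led. The oligodendrocyte class itself is made mostly of 1 cluster from batch 1 and another from batch 2. The share of medium spiny neurons ran from 0.238% to 33.5% across libraries. Of 56305 barcode sequences, 1941 occurred in more than 1 library. Angpt2 itself had 3.77 to 4.30 CPM (UMIs per 1000000 UMIs) in whole control libraries and 2.23 to 4.80 in whole ANGPT2 libraries, so its counts do not separate the groups, and whether the vector's transcript is counted under this gene was not tested.

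Among the 36 genes, 28 have a promoter in the RefSeq promoter table for GRCm38.p6, which gives 250 bases before to 50 bases after each start. The ER stress element, to which ATF6 and XBP1 are known to bind together with NF-Y, was searched on both strands as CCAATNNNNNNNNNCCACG. It occurred in 7 of these 28 genes (Calr, Canx, Creld2, Dnajc3, Hsp90b1, Hspa5 and Pdia6), all of them ER folding chaperones or their partners, and in 0.119% of all 32851 promoters of the table. The heat shock element, searched on both strands as 3 alternating units, GAANNTTCNNGAA, occurred in 3 genes (Hspd1, Hspe1 and Hsph1) and in 0.603% of all promoters. The C/EBP-ATF element, TGATGNAA, occurred in Herpud1 and Trib3 and in 3.97% of all promoters. The UPR element core, TGACGTGG, occurred in 0 of the 28 genes and in 0.676% of all promoters. These matches describe letters in a window, and the libraries do not measure binding.

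The promoter windows are shown because they mark which of the chaperone genes share a known stress motif, and several of these genes recur in the comparisons that follow. Each line gives a match in capitals with 10 bases on either side, 5′ to 3′ along the gene's own strand. Calr and Creld2 carry the ER stress element in the reverse orientation, and Hsp90b1 carries it once in each orientation.
Hspa5 (chr2:34771840-34772139, plus strand): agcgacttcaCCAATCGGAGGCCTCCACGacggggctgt
Calr (chr8:84846882-84847181, minus strand): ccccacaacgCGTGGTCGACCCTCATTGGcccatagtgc
Hsp90b1 (chr10:86705395-86705694, minus strand): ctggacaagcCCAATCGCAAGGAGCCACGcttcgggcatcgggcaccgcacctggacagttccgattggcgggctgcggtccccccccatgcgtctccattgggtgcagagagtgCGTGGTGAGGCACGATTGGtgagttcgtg
Canx (chr11:50325624-50325923, minus strand): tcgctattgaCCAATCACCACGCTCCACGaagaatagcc
Pdia6 (chr12:17266339-17266638, plus strand): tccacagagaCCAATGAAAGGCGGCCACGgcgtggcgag
Dnajc3 (chr14:118937682-118937981, plus strand): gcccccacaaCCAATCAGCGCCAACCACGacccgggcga
Creld2 (chr15:88819396-88819695, plus strand): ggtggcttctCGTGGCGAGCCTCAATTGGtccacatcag

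The heat shock elements of Hspd1 and Hspe1 are the same bases read on opposite strands, since the 2 mitochondrial chaperonin genes start next to each other and run apart. Their promoter windows overlap, and the 2 overlapping matches in each window form a single run of capitals.
Hspd1 (chr1:55087883-55088182, minus strand): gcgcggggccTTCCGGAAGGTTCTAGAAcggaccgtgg
Hspe1 (chr1:55087898-55088197, plus strand): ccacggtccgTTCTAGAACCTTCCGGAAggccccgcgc
Hsph1 (chr5:149636266-149636565, minus strand): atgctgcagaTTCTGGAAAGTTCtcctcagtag

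Across nucleus types, most of the 36 genes had their highest levels in endothelial, ependymal and microglial nuclei and lower levels in neurons. Levels across classes are plain CPM, a gene's UMIs per 1000000 UMIs of the class, and are compared for 1 gene at a time, over the 12 classes with at least 10 nuclei in every library. The mean log2 level was highest in endothelial nuclei for 16 genes, in ependymal nuclei for 8, in microglia for 7, in fibroblasts for 2, in mural nuclei for 2 and in oligodendrocytes for 1. It was lowest in excitatory neurons for 10 genes, in committed oligodendrocyte precursors for 10, in mural nuclei for 7 and in medium spiny neurons for 5. Inhibitory neurons, oligodendrocyte precursors, ependymal nuclei and fibroblasts were each lowest for 1. Of the 36 genes, 34 had a higher mean level in endothelial nuclei than in each of the 3 neuron classes, and 34 were higher in microglia than in each of them. For 7 genes the leading class was above the next class in all 7 libraries: Hspb1, Edem1, Cryab, Ddit3, Dnajb9, Hsp90ab1 and Pdia3. Classes were ranked by the mean log2 level, which places small classes with libraries at 0 low. Some other class exceeded the leading class in at least 1 library for 4 of these genes (Ddit3, Dnajb9, Cryab and Pdia3). An exact two-sided sign-flip permutation test over the 7 libraries gives each of these p = 0.0156, the smallest p that 7 libraries allow. Adjusted over the 36 genes it is 0.0804, so 0 genes passed the threshold of 0.05, and 7 had an unadjusted exact p at this smallest value. The class totals behind these levels differed widely, and ribosomal protein genes summed to 12253 to 25356 CPM in endothelial nuclei and 1466 to 2270 in excitatory neurons. Median UMIs per nucleus were 805 to 1724 in endothelial nuclei and 3915 to 17017 in excitatory neurons. Ttr, a gene of the choroid plexus, stood at 71.2 to 2601 CPM in endothelial nuclei and at 16.1 to 268 in excitatory neurons. The part of these differences in the ranking of the classes was not tested.

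**Figure D1:**
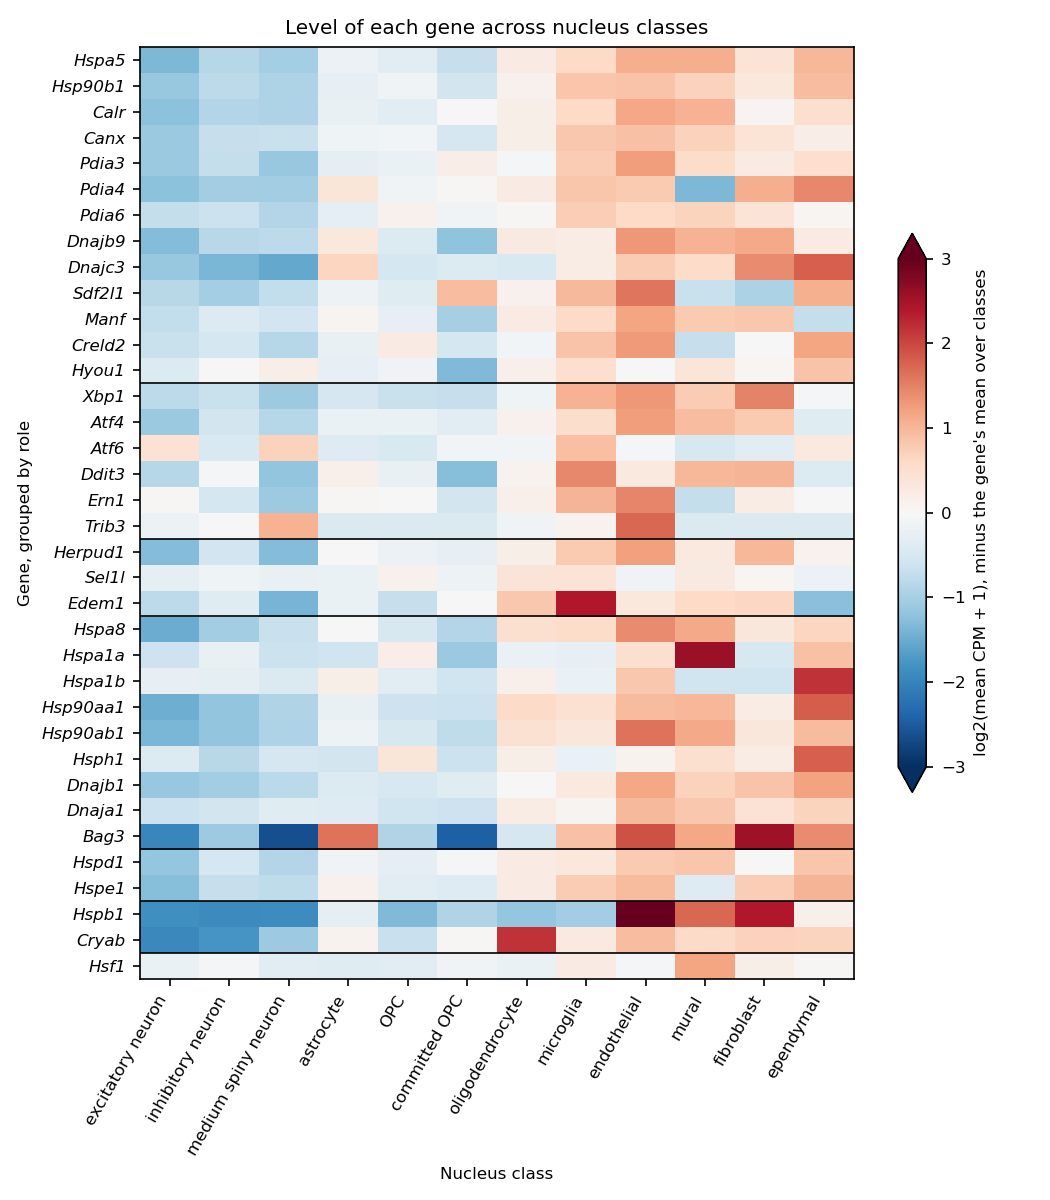
Heat map of the 36 genes (rows, grouped by role) over 12 nucleus classes (columns). Colour gives log2(mean CPM + 1), minus the gene's own mean over the classes; endothelial, ependymal and microglial columns are mostly red, and the 3 neuron columns mostly blue.

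Hspb1, which encodes the small heat shock protein HSP27 (chromosome 5, 135887919 to 135889563), was the most restricted gene of the list. Its level in endothelial nuclei ranged over the 7 libraries from 107 to 703 CPM with a median of 281, and the next class, fibroblasts, ranged from 0 to 43.3 with a median of 30.3. Every endothelial value was above every fibroblast value. The mean log2 difference was 5.04 ± 3.59 (SD, n = 7), and its size depends on the prior count used for the fibroblast libraries at 0. In excitatory neurons Hspb1 had at most 0.672 CPM, below every endothelial value. The 2 fibroblast libraries with 0 UMIs of Hspb1 had class totals of 33236 and 56431 UMIs, which allow levels of up to 90.3 and 53.2 CPM, counting error only. Cryab, the other small heat shock protein (alpha-B crystallin; chromosome 9, 50751325 to 50756636), was highest in oligodendrocytes. It stood there at 59.1 to 132 CPM with a median of 89.5, against 5.93 to 67.7 with a median of 35.7 in endothelial nuclei, a mean log2 difference of 1.49 ± 0.941 (SD, n = 7). Fibroblasts had 11.4 to 70.9 CPM and exceeded oligodendrocytes in 1 library. Oligodendrocyte precursors had 5.90 to 16.9 and excitatory neurons 2.45 to 7.54 CPM of Cryab, both entirely below the oligodendrocyte range. The pair of small heat shock proteins thus had different leading classes.

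Microglia led for 2 genes of ER stress, a degradation factor and a transcription factor. Edem1, which directs misfolded glycoproteins to degradation (chromosome 6, 108828641 to 108859356), had 96.6 to 135 CPM in microglia with a median of 111, and 29.8 to 48.6 with a median of 34.4 in oligodendrocytes. The groups of values do not overlap, and the mean log2 difference was 1.61 ± 0.312 (SD, n = 7). Ddit3, which encodes the stress-induced factor CHOP (chromosome 10, 127290774 to 127296288), had 19.3 to 32.5 CPM in microglia with a median of 23.1. In astrocytes, the next class, it had 3.46 to 14.9 with a median of 9.27, a mean log2 difference of 1.44 ± 0.570 (SD, n = 7). Mural nuclei exceeded microglia for Ddit3 in 4 of 7 libraries and had 0 UMIs in the other 3, with a highest value of 35.9 CPM, and fibroblasts exceeded microglia in 3 and had 0 UMIs in 3. Ddit3 was therefore not particular to microglia, where no library was at 0. All microglial values of Ddit3 rest on 118 UMIs in total, and the gene had 0 UMIs in 2 control libraries of medium spiny neurons, which allow levels of up to 28.2 and 2.11 CPM.

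In endothelial nuclei the leading genes were chaperones of the ER and the cytosol. Dnajb9, an HSP40-type partner of the ER chaperone BiP, had 29.0 to 53.5 CPM there and 12.7 to 26.7 in astrocytes, without overlap (mean log2 difference 1.00 ± 0.511, SD, n = 7). Mural nuclei exceeded endothelial nuclei for Dnajb9 in 3 of 7 libraries, with a highest value of 103 CPM and 3 libraries at 0, and fibroblasts did so in 3, with a highest value of 68.8 CPM. Pdia3, a disulfide isomerase for glycoproteins, had 196 to 335 in endothelial nuclei and 146 to 220 in microglia, and these ranges overlap although each library's endothelial value was the higher one (difference 0.48 ± 0.373, SD, n = 7). Mural nuclei, at 66.8 to 207 CPM of Pdia3, exceeded endothelial nuclei in 1 library. Hsp90ab1, the constitutive cytosolic HSP90, had 678 to 1097 in endothelial nuclei and 349.9 to 919 in mural nuclei, also with overlapping ranges (difference 0.54 ± 0.367, SD, n = 7). Reads of Hsp90ab1, Hspa8, Hspd1 and Hspe1 may be shared with processed pseudogenes, and those of Hspa1a and Hspa1b with each other, so their counts are uncertain.

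The genes that are often used as readouts of the 2 responses had no single leading class. Hspa5, which encodes BiP, the central ER chaperone (chromosome 2, 34771970 to 34777547), had 126 to 303 CPM in endothelial, 96.6 to 334 in mural and 99.7 to 299 in ependymal nuclei. These ranges overlap almost completely, and the endothelial value was the higher one of endothelial and mural in 5 of 7 libraries. Below them Hspa5 had 127 to 163 in microglia, 96.0 to 140.2 in oligodendrocytes, 72.6 to 98.4 in astrocytes and 24.6 to 44.9 in excitatory neurons. The neuronal range of Hspa5 lies entirely below the astrocyte range. Hspa8, the constitutive HSP70, had 242 to 660 CPM in endothelial and 143 to 788 in mural nuclei, with 39.1 to 92.0 in excitatory neurons. Hsp90aa1, the inducible cytosolic HSP90, was highest in ependymal nuclei at 205 to 884, ahead of mural nuclei at 111 to 334 in 6 of 7 libraries. An exact permutation test gave p = 0.0469 and an adjusted p of 0.169 over the 36 genes for Hsp90aa1.

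**Figure D2:**
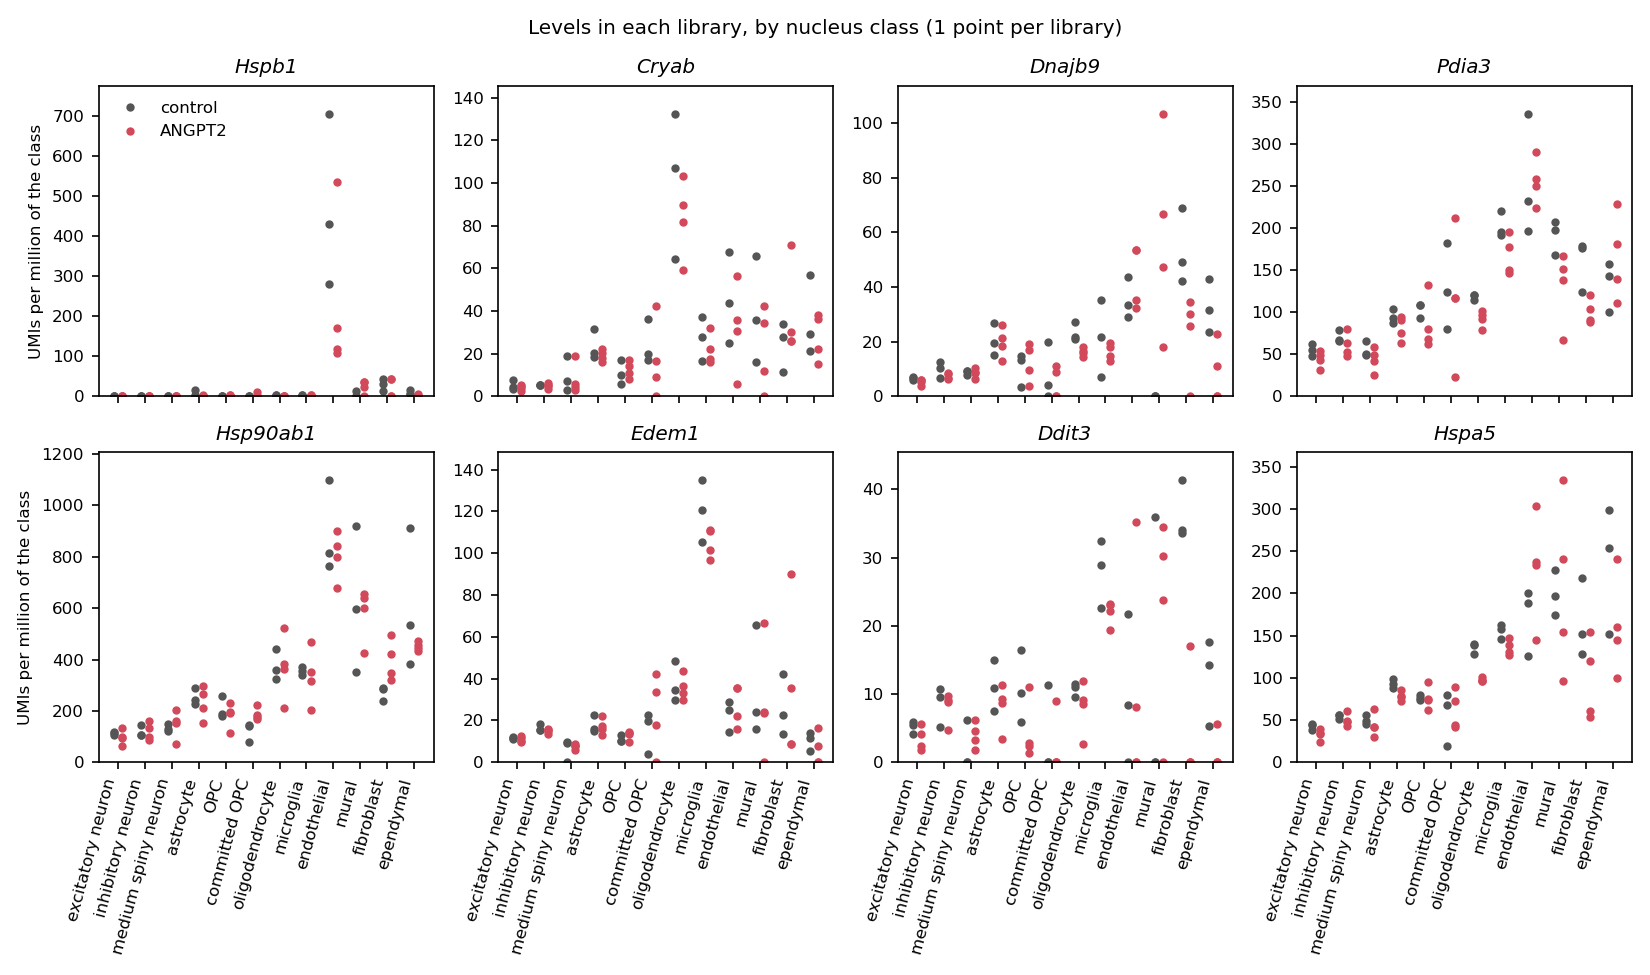
Level of 8 genes in CPM of the class (vertical axes, each from 0) over 12 nucleus classes (horizontal axes), 1 point per library, control in grey and ANGPT2 in red. Hspb1 stands apart in endothelial nuclei, Cryab in oligodendrocytes and Edem1 in microglia, while the endothelial, mural and ependymal points of Hspa5 overlap.

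A few genes were too sparse for a profile. Trib3, a target of ATF4 and CHOP, had 86 UMIs in all kept nuclei, and the paralogous inducible HSP70 genes Hspa1b and Hspa1a had 136 and 196. At the other end Atf6 had 57401 UMIs, of which 40029 came from excitatory neurons, the class with the most nuclei and UMIs in all. Atf6, the membrane-bound ER stress sensor, was also one of the few genes whose level in neurons was near the top, with 163 to 217 CPM in excitatory neurons and 210.5 to 320.3 in microglia.

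For the comparison of ANGPT2 with control, UMIs were summed per library within each class and tested with edgeR over all genes that had enough counts, with p-values adjusted over those genes. A log2 change is ANGPT2 over control. No gene of the list passed an adjusted p of 0.05 in whole libraries or in any of the 13 classes, and in each of these 14 comparisons 0% of all tested genes passed. Over the 14 comparisons together 21 of 317 tests on listed genes (6.62%) had an unadjusted p under 0.05 with edgeR, as did 3.35% of the 118470 tests on all genes. The classes share their mice and whole libraries contain the classes, so these tests are not independent. DESeq2 called 0 listed genes in each comparison. In whole libraries all 36 genes could be tested, and 8 had higher and 28 lower fitted values in ANGPT2 libraries. Their median log2 change was -0.13, beside a median of -0.02 over 19858 tested genes, of which 53.8% were lower. This median rests on single libraries: it was -0.05 without the ANGPT2 female of batch 2 (25 of 36 lower) and -0.22 without the ANGPT2 male of batch 2 (31 of 36 lower). An unadjusted p under 0.05 with a lower value was found for 1 of the 36 genes and for 1.59% of all tested genes. All 4 ANGPT2 libraries lay below all 3 controls for 1 gene, Sel1l, and for 2.05% of all tested genes. A whole-library value mixes all classes, so fewer nuclei of a type and less RNA per nucleus cannot be told apart in it.

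**Figure D3:**
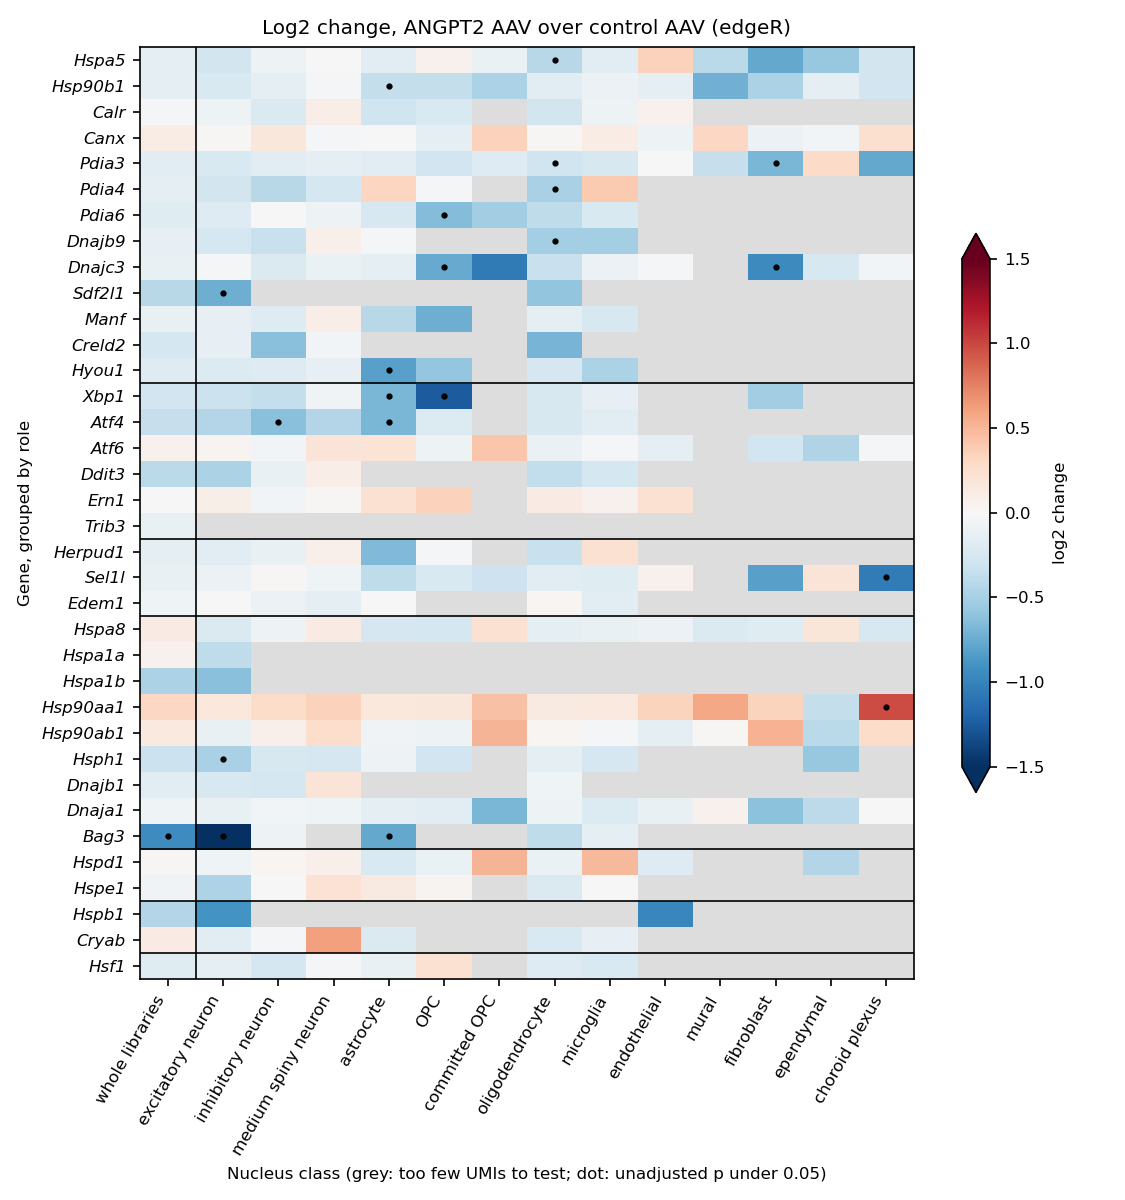
Heat map of the log2 change, ANGPT2 over control (colour), for the 36 genes (rows, grouped by role) in whole libraries and 13 classes (columns). Grey cells had too few UMIs to test and dots mark the 21 tests with an unadjusted edgeR p under 0.05; none passed after adjustment.

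The by-library values that follow are CPM scaled with TMM factors, in a fixed order: control male and female of batch 1 and male of batch 2, then ANGPT2 male and female of batch 1 and male and female of batch 2. Hspa5 in whole libraries had 51.3, 62.1 and 57.7 in controls and 44.6, 48.5, 69.3 and 43.3 in ANGPT2 libraries, with the ANGPT2 male of batch 2 the highest and the other 3 ANGPT2 libraries below the controls. Hspa8 had 88.8, 60.5 and 120.5 in controls and 57.4, 89.5, 166 and 78.2 in ANGPT2 libraries. The groups overlap, and the highest value was that of the ANGPT2 male of batch 2, which also had the largest share of medium spiny neurons. The part of this share, and of unnamed nuclei, in the Hspa8 values was not tested. Hsp90aa1 had 58.4, 67.3 and 65.0 in controls and 65.6, 107, 90.3 and 53.1 in ANGPT2 libraries. Hsp90ab1 had 132, 150.3 and 154 in controls and 139, 207, 201 and 97.5 in ANGPT2 libraries. Both cytosolic HSP90 genes were highest in the same 2 ANGPT2 libraries and lowest in the ANGPT2 female of batch 2. Cryab had 13.2, 8.09 and 13.8 in controls and 10.2, 13.3, 20.3 and 7.38 in ANGPT2 libraries. Ddit3 had 7.64, 6.05 and 6.39 in controls and 5.19, 6.65, 5.51 and 2.81 in ANGPT2 libraries, with the ANGPT2 female of batch 2 the lowest. For all 6 genes the groups overlap.

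Bag3 was the only listed gene with an unadjusted p under 0.05 in whole libraries. It encodes a co-chaperone of HSP70 in selective autophagy and is a target of heat shock factor 1 (chromosome 7, 128523616 to 128546981). Bag3 had 3.02, 7.89 and 3.42 CPM in controls and 2.41, 3.22, 1.88 and 2.36 in ANGPT2 libraries. The control female was far above all others, the control male of batch 1 lay inside the ANGPT2 range and the control male of batch 2 just above it. The log2 change was -0.94 (SE 0.35, edgeR adjusted p = 0.999). Without the control female the log2 change of Bag3 in whole libraries was -0.36, so this 1 library moves the value by more than 1.5 times.

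In excitatory neurons 35 of the 36 genes could be tested, and 30 had lower and 5 higher values in ANGPT2 libraries, with a median log2 change of -0.21 beside -0.02 over all 17928 tested genes. Of the ER folding chaperones 12 of 13 were lower, and of the cytosolic chaperones 8 of 9. Lower values with an unadjusted p under 0.05 were found for 3 genes and for 2.25% of all tested genes, and 4 genes had all ANGPT2 libraries below all controls, as did 2.39% of all tested genes. None passed the adjusted threshold. This class pools dentate granule and thalamic excitatory nuclei with the other excitatory neurons, and the mix differed between libraries. Thalamic nuclei were 610 of 3009 in the ANGPT2 male of batch 1 and 24 of 1092 in that of batch 2. Dentate granule nuclei were 685 of 3400 in the control female and 100 of 2497 in the ANGPT2 female of batch 1. The part of this mix in the values of the class was not tested.

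Bag3 in excitatory neurons had 0.926, 6.95 and 1.08 CPM in controls and 0.528, 0.562, 0.472 and 0.535 in ANGPT2 libraries. Here the groups do not overlap, but the control female was again several times above the other controls, with 307 of the 438 Bag3 UMIs of the class. The log2 change was -2.53 (SE 0.69, edgeR adjusted p = 0.892), and -0.89 without the control female. Hsph1, the HSP110 nucleotide exchange factor of HSP70 (chromosome 5, 149614287 to 149636376), had 42.9, 78.9 and 68.4 in controls and 46.3, 49.4, 44.5 and 40.4 in ANGPT2 libraries. For Hsph1 the control male of batch 1 lay inside the ANGPT2 range, and the log2 change of -0.49 (SE 0.18, edgeR adjusted p = 0.892) was -0.30 without the control female. Sdf2l1, a small ER protein found in complexes with BiP, had 1.63, 1.97 and 1.91 in controls and 1.01, 1.39, 1.42 and 0.595 in ANGPT2 libraries. All ANGPT2 values of Sdf2l1 were below all controls, on 10 to 104 UMIs per library, with a log2 change of -0.73 (SE 0.31, edgeR adjusted p = 0.892).

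Immediate early genes, which neurons and glia raise within minutes of stimulation or tissue handling, were also highest in the control female. All 13 tested immediate early genes of a list of 14 were lower in excitatory neurons of ANGPT2 libraries (median log2 change -0.84), 5 of them at an unadjusted edgeR p under 0.05 and 0 after adjustment. Fos had a log2 change of -2.17 (SE 0.81) and Fosb of -2.67 (SE 1.01). Within batch 1 the differences of Fos and Fosb were -1.41 and -1.60, and within batch 2 they were -0.38 and -0.05. Summed over the list the immediate early genes had 121, 544 and 195 CPM in controls and 122, 181, 163 and 101 in ANGPT2 libraries. The control female was the highest library in this sum too, the control male of batch 1 lay inside the ANGPT2 range and the control male of batch 2 just above it. The same library had the highest sum in astrocytes (632, beside 182 to 268 in the other 6) and in oligodendrocytes (514, beside 207 to 338). It was the highest library for this sum in 11 of the 13 classes, and in endothelial and mural nuclei the ANGPT2 male of batch 2 was, with 5921 and 2100.0 CPM. The part of this library's state, and of tissue handling, in the Bag3 and Hsph1 values was not tested beyond leaving the library out. Markers of microglia summed to 33.9 to 42.2 CPM in excitatory neurons of ANGPT2 libraries and 42.4 to 54.6 in those of controls, with 8 of 8 markers lower and none at 0 in any library, and their part was not tested either.

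**Figure D4:**
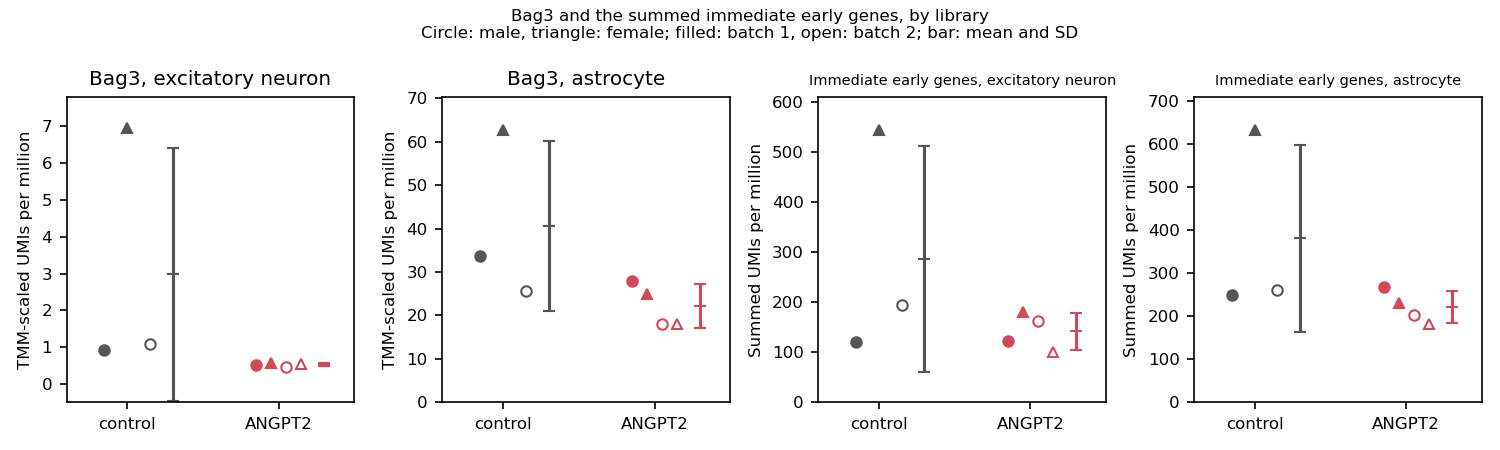
Bag3 (TMM-scaled CPM) and the summed immediate early genes (CPM) in excitatory neurons and astrocytes, 1 symbol per library (control grey, ANGPT2 red; circle male, triangle female; filled batch 1, open batch 2), with mean and SD at the right of each group (control n = 3, ANGPT2 n = 4). The filled grey triangle is the control female, the highest point in all 4 panels.

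Oligodendrocytes showed the most ER chaperones among the genes with small unadjusted p. Of 32 tested genes 27 were lower and 5 higher in ANGPT2 libraries, with a median log2 change of -0.22 beside -0.004 over 12099 tested genes. Of the 13 ER folding chaperones 12 were lower, with a median log2 change of -0.34. An unadjusted p under 0.05 with a lower value was found for 4 genes, Hspa5, Pdia4, Dnajb9 and Pdia3, and for 1.53% of all tested genes. For 6 genes (Hspa5, Pdia3, Bag3, Calr, Dnajb9 and Dnajc3) all 4 ANGPT2 libraries were below all 3 controls, as for 2.31% of all tested genes. None passed the adjusted threshold of edgeR, and the adjusted p of the 4 genes was 0.9999. Of the 7 genes with an ER stress element in the promoter window 6 were lower, and of the 17 tested genes with a window but no such element 15 were lower, so the 2 sets had similar counts.

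Hspa5 in oligodendrocytes had 136, 144 and 121 CPM in controls (mean 134 ± 11.2, SD, n = 3) and 96.0, 93.7, 106 and 106 in ANGPT2 libraries (mean 101 ± 6.72, SD, n = 4). The groups do not overlap, and the gap was wider in batch 1 than in batch 2. The log2 change was -0.42 (SE 0.14, edgeR adjusted p = 0.9999), and the difference of mean log2 values was -0.56 within batch 1 and -0.19 within batch 2. Pdia3 had 116, 118 and 114 in controls and 91.7, 97.2, 101 and 86.8 in ANGPT2 libraries, also without overlap. Its log2 change was -0.30 (SE 0.13), with -0.31 in batch 1 and -0.28 in batch 2. Pdia4, another ER disulfide isomerase (chromosome 6, 47796141 to 47813430), had 31.3, 32.1 and 23.8 in controls and 21.6, 18.7, 24.0 and 21.0 in ANGPT2 libraries. For Pdia4 the batch 2 control lay inside the ANGPT2 range, and the log2 change of -0.49 (SE 0.19) was -0.65 in batch 1 and -0.08 in batch 2. Dnajb9 had 20.4, 28.2 and 20.5 in controls and 15.7, 15.7, 18.8 and 15.7 in ANGPT2 libraries, with a log2 change of -0.51 (SE 0.20). Dnajb9 was below all controls in each ANGPT2 library, and without the control female its log2 change was -0.33.

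A list of 41 further UPR genes, none among the 36, was chosen with earlier results of these data known. It was measured in the same nuclei, so it gives no separate support. Of its 35 genes tested in oligodendrocytes 28 were lower (median log2 change -0.11), beside 50.6% of all tested genes. With edgeR 1 gene of this list had an unadjusted p under 0.05 and 0 passed after adjustment. That gene was Ostc, a subunit of the oligosaccharyltransferase, at 20.4 CPM on average in controls and 15.0 in ANGPT2 libraries. Of 33 tested genes from a list of other heat shock response genes 18 were lower, with a median of -0.02. Markers of microglia were also lower in the oligodendrocyte nuclei of ANGPT2 libraries, at 128 to 151 CPM summed over 8 markers beside 152 to 204 in controls. Of these 8 markers 7 had the lower mean, and none was at 0 in any library. Sums of Ttr overlapped between the groups, at 117 to 1673 in ANGPT2 libraries and 371 to 453 in controls. The part of RNA from other cells in the oligodendrocyte values was not tested.

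**Figure D5:**
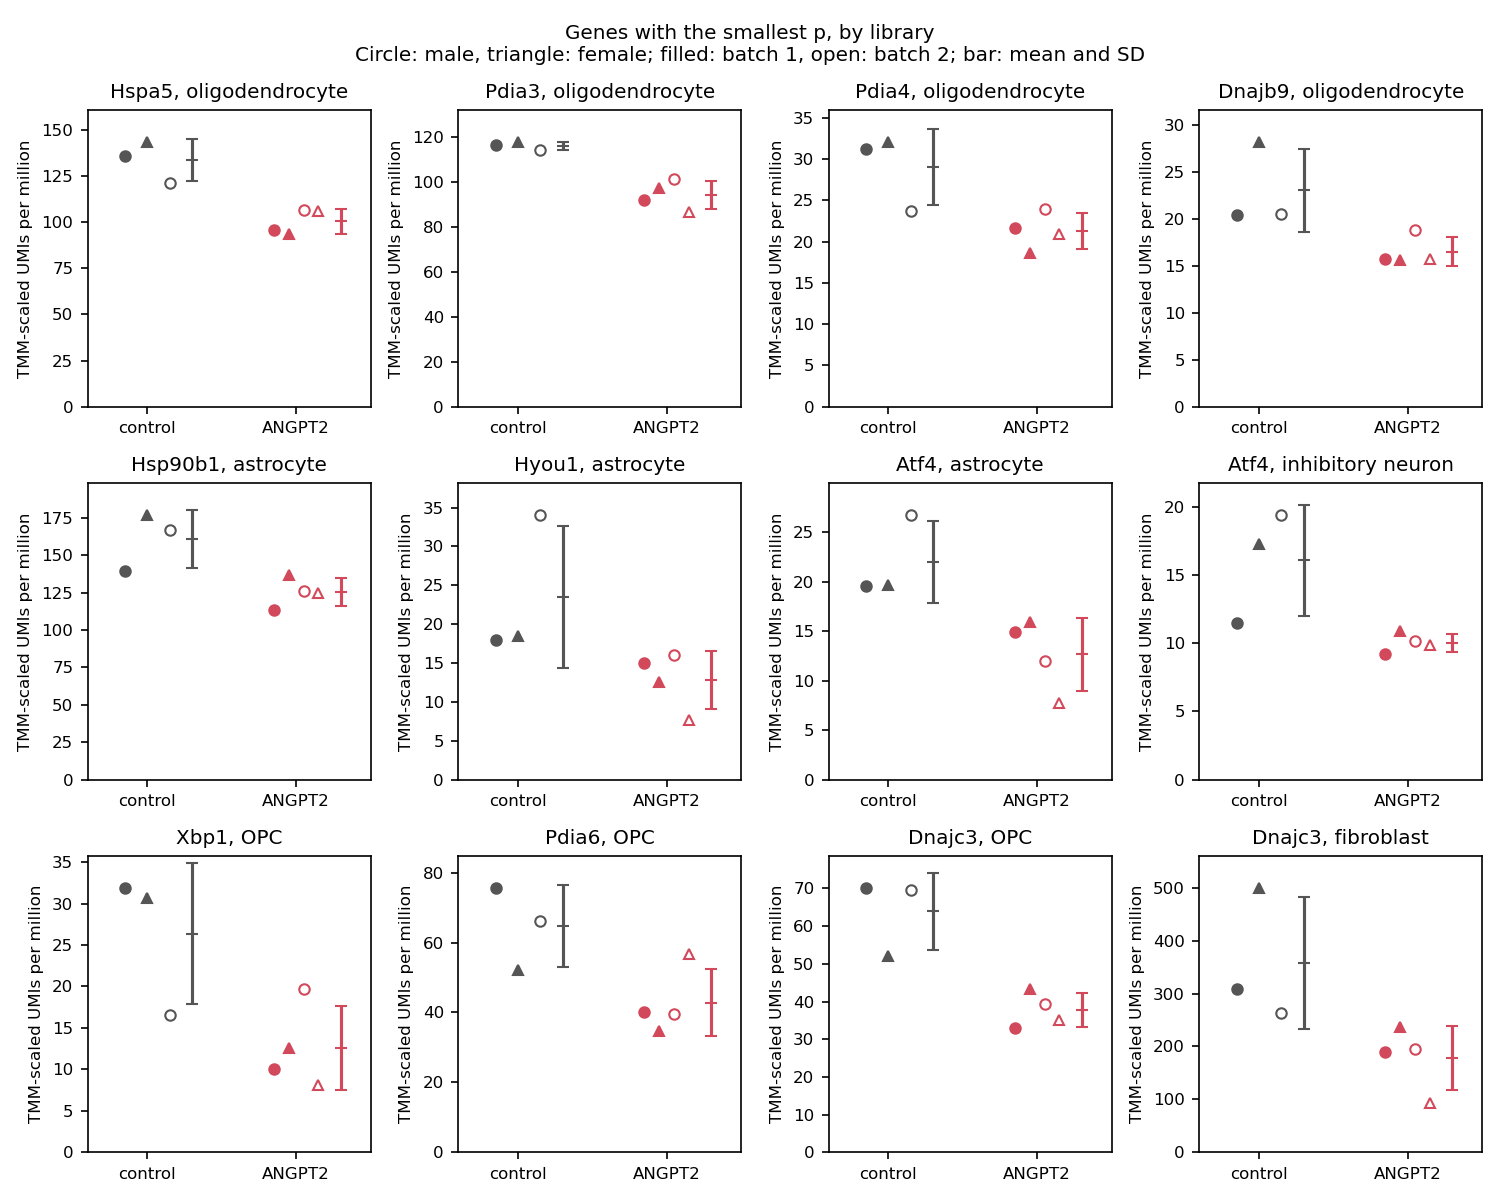
TMM-scaled CPM (vertical axes) of 10 genes in 12 gene and class pairs, 1 symbol per library (control grey, ANGPT2 red; circle male, triangle female; filled batch 1, open batch 2), with mean and SD at the right of each group (control n = 3, ANGPT2 n = 4). Hspa5, Pdia3 and Dnajb9 in oligodendrocytes show no overlap between the groups, while the groups overlap for Xbp1 and Pdia6 in oligodendrocyte precursors.

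In oligodendrocyte precursors 24 genes could be tested and 19 were lower in ANGPT2 libraries, with a median log2 change of -0.19 beside 0.004 over 8346 tested genes. With an unadjusted p under 0.05, 3 genes were lower, as were 2.56% of all tested genes, and all ANGPT2 libraries were below all controls for 1 gene, Dnajc3, and for 3.03% of all tested genes. Dnajc3, which encodes the PERK inhibitor P58IPK, had 70.2, 52.2 and 69.6 CPM in controls and 33.0, 43.2, 39.4 and 35.2 in ANGPT2 libraries. Its log2 change was -0.76 (SE 0.23, edgeR adjusted p = 0.942), and the batches separately gave -0.66 in batch 1 and -0.87 in batch 2. The groups of Dnajc3 do not overlap, and both batches showed a difference of similar size. Xbp1, the transcription factor that the sensor encoded by Ern1 activates by splicing, had 31.9, 30.7 and 16.6 in controls and 10.03, 12.5, 19.7 and 8.11 in ANGPT2 libraries (log2 change -1.25, SE 0.37). In batch 2 the Xbp1 values overlap, on 3 to 5 UMIs per library. Pdia6, a disulfide isomerase with an ER stress element in its window, had 75.6, 52.2 and 66.3 in controls and 40.1, 34.8, 39.4 and 56.8 in ANGPT2 libraries, with overlap (log2 change -0.65, SE 0.24). The adjusted p of Xbp1 and Pdia6 was 0.942.

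In astrocytes 28 genes could be tested and 23 were lower in ANGPT2 libraries, with a median log2 change of -0.17 beside 0.004 over 9571 tested genes. Of the ER folding chaperones 10 of 11 were lower. An unadjusted p under 0.05 with a lower value was found for 5 genes and for 1.88% of all tested genes, and for 3 genes (Hyou1, Hsp90b1 and Atf4) all ANGPT2 libraries were below all controls, as for 2.71% of all tested genes. Hsp90b1, which encodes the ER member of the HSP90 family, GRP94 (chromosome 10, 86690209 to 86705509), had 139, 177 and 167 CPM in controls and 114, 137, 126 and 124 in ANGPT2 libraries. Its log2 change was -0.35 (SE 0.15, edgeR adjusted p = 0.992), and the batches separately gave -0.33 in batch 1 and -0.41 in batch 2. Hyou1, an ER chaperone of the HSP110 family, had 17.9, 18.4 and 34.1 in controls and 14.9, 12.5, 16.0 and 7.69 in ANGPT2 libraries. The gap of Hyou1 was wide in batch 2 and narrow in batch 1, with a log2 change of -0.82 (SE 0.32, edgeR adjusted p = 0.992) that was -0.49 without the control of batch 2. Atf4, the transcription factor of the integrated stress response (chromosome 15, 80255184 to 80257541), had 19.6, 19.7 and 26.8 in controls and 14.9, 15.9, 12.02 and 7.69 in ANGPT2 libraries, with a log2 change of -0.69 (SE 0.29, edgeR adjusted p = 0.992). Bag3 had 33.6, 62.6 and 25.5 in controls and 27.9, 25.1, 18.0 and 18.0 in ANGPT2 libraries. For Bag3 the groups overlap, and the log2 change of -0.77 (SE 0.30, edgeR adjusted p = 0.992) was -0.37 without the control female.

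Beside these astrocyte values, 8 of 9 tested immediate early genes were lower in ANGPT2 astrocytes, 3 at an unadjusted edgeR p under 0.05 and 0 after adjustment, with Nr4a1 at a log2 change of -0.90 (SE 0.29). Other UPR genes were lower for 20 of 30 tested genes, with Wfs1, an ER membrane protein, at -0.59 (SE 0.22). Other heat shock response genes were lower for 23 of 34. Hsf2, a second heat shock factor, was higher at 0.51 (SE 0.23, edgeR adjusted p = 0.992). All ANGPT2 libraries were above all controls for Hsf2, as for 2.57% of all tested genes. Markers of microglia summed to 87.2 to 118 CPM in ANGPT2 astrocytes and 120.6 to 139.8 in control astrocytes, with 5 of the 8 markers lower and none at 0 in any library. Their part in the astrocyte values was not tested.

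In inhibitory neurons 31 genes could be tested and 25 were lower in ANGPT2 libraries, with a median log2 change of -0.11 beside -0.01 over 12695 tested genes. Atf4 alone was lower with an unadjusted p under 0.05, as were 2.26% of all tested genes, and 4 genes (Hsph1, Hsf1, Atf4 and Creld2) had all ANGPT2 libraries below all controls, as did 2.66% of all tested genes. Atf4 had 11.5, 17.3 and 19.4 CPM in controls and 9.21, 10.9, 10.2 and 9.87 in ANGPT2 libraries. The ANGPT2 values of Atf4 lie close together and below all controls, with a log2 change of -0.62 (SE 0.22, edgeR adjusted p = 0.982), -0.49 in batch 1 and -0.94 in batch 2. Among other UPR genes 26 of 37 were lower in this class, 3 at an unadjusted edgeR p under 0.05 and 0 after adjustment, with Dnajb11, an ER co-chaperone, at -0.51 (SE 0.20). Of 9 tested immediate early genes 8 were lower, with Fos at -1.96 (SE 0.73). A cluster of 2334 nuclei with GABA neuron markers did not reach the marker score and is not in this class.

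Fibroblasts and choroid plexus epithelium had few nuclei, 366 and 195 in all, so few genes could be tested. In fibroblasts 10 of 12 tested genes were lower in ANGPT2 libraries, with a median log2 change of -0.50 beside 0.002 over 3023 tested genes. An unadjusted p under 0.05 with a lower value was found for 2 genes, Dnajc3 and Pdia3, and for 2.08% of all tested genes. The same count of 2 genes had all ANGPT2 libraries below all controls, as did 2.51% of all tested genes. For 1 gene all ANGPT2 libraries were above all controls, as for 2.28% of all tested genes. Dnajc3 in fibroblasts had 309, 499 and 264 CPM in controls and 189, 236, 195 and 93.9 in ANGPT2 libraries (log2 change -0.96, SE 0.34, edgeR adjusted p = 0.998). Pdia3 had 250.3, 244 and 169 in controls and 142, 165, 117 and 117 in ANGPT2 libraries (log2 change -0.69, SE 0.32, edgeR adjusted p = 0.998). Neither gene's groups overlap, but the batch 2 values rest on 3 to 14 UMIs per library.

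In choroid plexus epithelium, where the ANGPT2 male of batch 2 had no nuclei and was left out, 8 of 11 tested genes were lower in ANGPT2 libraries, with a median log2 change of -0.04. An unadjusted p under 0.05 was found for 1 lower gene, Sel1l, beside 2.11% of all 3125 tested genes, and for 1 higher gene, Hsp90aa1, beside 2.24%. All ANGPT2 libraries were below all controls for 1 gene and for 5.57% of all tested genes. Sel1l, the adaptor of the ER degradation complex around HRD1, had 252, 123 and 192 CPM in controls and 111, 99.9 and 0 in the 3 ANGPT2 libraries (log2 change -1.05, SE 0.40, edgeR adjusted p = 0.918). The ANGPT2 library at 0 held 0 UMIs of Sel1l in a class total of 27476 UMIs, which allows a level of up to 109 CPM before scaling, so this library does not separate from the other ANGPT2 libraries. Hsp90aa1 had 72.1, 131 and 38.5 in controls and 160.1, 207 and 46.8 in ANGPT2 libraries, with overlap (log2 change 0.97, SE 0.39, edgeR adjusted p = 0.985). Its batch 2 values rest on 1 UMI in each library, and without the ANGPT2 female of batch 1 the log2 change was 0.51.

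The other 6 classes gave no listed gene an unadjusted p under 0.05 with edgeR, and 0 passed after adjustment. In microglia 23 of 29 tested genes were lower in ANGPT2 libraries (median log2 change -0.13), beside 49.5% of all tested genes (median 0.003). In medium spiny neurons 16 of 30 were lower and 14 higher (median -0.01), beside 47.6% of all tested genes lower (median 0.01). This split followed single libraries: 25 of 29 genes were lower without the ANGPT2 male of batch 2 (median -0.12), and 8 of 30 without the ANGPT2 female of batch 2 (median 0.09). The medians in these classes came with immediate early genes that were lower in 7 of 8 tests in microglia and 9 of 9 in medium spiny neurons, where Nr4a1 had a log2 change of -1.76 (SE 0.41). Endothelial nuclei are the direct targets of angiopoietin-2 and the class with the highest levels of many of these genes. There 10 of 15 tested genes were lower and 5 higher (median -0.08), beside 50.6% of all tested genes lower (median -0.004). Ependymal nuclei had 10 of 13 lower (median -0.36), beside 49.3% of all tested genes (median 0.005). Mural nuclei had 4 of 8 lower (median -0.10), beside 48.3% (median 0.02). Committed oligodendrocyte precursors had 7 of 13 lower (median -0.10), beside 47.7% (median 0.02). At an unadjusted edgeR p under 0.05, 2.20% of all tested genes were lower in microglia, 1.19% in medium spiny neurons and 1.07% in endothelial nuclei. These shares were 1.87% in ependymal nuclei, 2.52% in mural nuclei and 1.17% in committed precursors. All ANGPT2 libraries were above all controls for 1 listed gene in committed precursors (2.06% of all tested genes) and 1 in mural nuclei (2.15%). They were below all controls for 1 in mural (3.04%) and 1 in ependymal nuclei (2.59%). In the 4 small classes (endothelial, ependymal, mural and committed precursors) 154 to 512 nuclei in all gave the values. With simulated counts of endothelial nuclei 11 of 87 genes with a 2-fold change passed the adjusted threshold, so most differences of this size were missed in that simulation. Ependymal, mural and committed precursor nuclei were not simulated.

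Markers of other cell types were compared between the groups in every class, as 208 pairs of a class and another type's marker list, and in 15 of them the summed levels did not overlap. Microglial markers, lower in 3 classes as given above, were higher in ANGPT2 ependymal nuclei, at 129.5 to 165 CPM beside 114 to 129.0 in controls (4 of 8 markers higher). Ependymal nuclei also had lower oligodendrocyte precursor markers (36.1 to 114 beside 143 to 240 CPM, 6 of 8 lower) and higher dentate granule neuron markers (2549 to 3795 beside 2305 to 2464, 5 of 6 higher). In the choroid plexus class endothelial markers were higher (789 to 1274 beside 682 to 727 CPM, 3 of 8 higher), although 4 of them, Cldn5, Flt1, Pecam1 and Tek, were at 0 in every library. Medium spiny neuron markers were lower in that class (437 to 491 beside 563 to 634 CPM, 6 of 9 lower). Endothelial nuclei of ANGPT2 libraries had higher astrocyte markers (800.5 to 1362 beside 629 to 792 CPM, 6 of 8 higher) and lower border macrophage markers (24.2 to 52.7 beside 72.6 to 87.1, 4 of 7 lower and Lyve1, Ms4a7 and Pf4 at 0 in every library). In microglia mural markers were higher (22.8 to 27.0 beside 15.4 to 20.5 CPM, 5 of 8 higher) and oligodendrocyte precursor markers lower (100.1 to 125 beside 135 to 168, 4 of 8 lower). The remaining 3 pairs were dentate granule neuron markers in inhibitory neurons (346 to 362 beside 316 to 327 CPM), fibroblast markers in medium spiny neurons (3.07 to 7.59 beside 0 to 2.81) and committed precursor markers in mural nuclei (925 to 1536 beside 861 to 923), all higher in ANGPT2 libraries. The part of RNA or nuclei of other types in the values of the listed genes was not tested.

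All classes come from the same 7 mice, so the lower medians in several classes are not separate observations of the ANGPT2 AAV. Leaving out the control female gave different results by class. In oligodendrocytes 29 of 31 tested genes were then lower (median log2 change -0.25), in excitatory neurons 30 of 34 (-0.18), in astrocytes 23 of 30 (-0.20) and in whole libraries 28 of 36 (-0.11). In inhibitory neurons the median moved from -0.11 to -0.05, with 22 of 31 genes lower. In medium spiny neurons it became 0.02, with 14 of 30 lower, and in committed oligodendrocyte precursors 0.46, with 2 of 7 lower.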

How the data were processed

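Raw UMI counts, 1 matrix a library, were deposited by the authors, and the submitters' processing notes name Cell Ranger 6.1.2 and the builds mm10 and GRCm38; whether intronic reads were counted is not given in the sources used here. Nuclei with at least 300 genes and at most 5% mitochondrial UMIs were kept, doublets (3939) called per library with simulated doublets and removed, and nuclei clustered with scanpy 1.11.5 (2500 variable genes without 129 stress and immediate early genes, 40 components, 15 neighbours, Leiden resolution 1, 46 clusters, 9 unnamed). Names came from markers of 17 types.

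Class sums (libraries with at least 10 nuclei) were tested with edgeR 4.0.16 in R 4.3.3 (quasi-likelihood, TMM, treatment only, filterByExpr with a minimum count of 10 and total of 15, Benjamini-Hochberg threshold 0.05). DESeq2 1.42.0 was an alternative. The fits were tested on simulated counts. Of genes with a 2-fold change, 41 of 98 passed in whole libraries, 46 of 97 in oligodendrocytes and 11 of 87 in endothelial nuclei. Of genes with a 4-fold change, 86 of 99, 96 of 98 and 76 of 79 passed. Unchanged genes that passed numbered 8 in whole libraries, 14 in oligodendrocytes and 3 in endothelial nuclei. Levels across classes used a prior count of 1. Libraries of a batch share it by label; deviations from group means correlated at 0.05 to 0.50 between same-batch libraries of different groups and at -0.45 to 0.10 between others, over genes.

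Values by library are given for up to 4 listed genes a class with the smallest unadjusted p under 0.05, for genes leading a class in all libraries and for Hspa5, Ddit3, Hspa8, Hsp90aa1, Hsp90ab1 and Cryab; at most 2 genes a direction come from the wider lists. Genes at non-overlap and the sparsest and most counted genes were chosen after their values were seen. The members and lists were chosen with earlier results of these data known. Positions come from GENCODE M21.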

Additional observations from a re-analysis of the deposited data

Results flagged for a closer look

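Dnajb9 in oligodendrocytes had 1 ANGPT2 library apart from the other 3: the male of batch 2 stood at 18.8 TMM-scaled CPM, while the next value was 15.7. This gap was 0.978 of the group's range, above Dixon's critical value for 4 libraries. It was the 1 such case among 18 groups tested, and chance gives about 1 in 20. The library rests on 18 UMIs of Dnajb9. Sex was examined only for the 20 gene and class pairs whose log2 change is named. None of these differences between the groups differed between males and females after adjustment (edgeR interaction term, 20 tests, 2 at an unadjusted p under 0.05). The smaller of these p-values was that of Bag3 in excitatory neurons, with a male minus female difference of 2.71 on the log2 scale (edgeR adjusted p = 0.35), and the female arm of this test holds the 1 control female.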

How the results depend on the processing

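Every count of listed genes past the adjusted threshold was 0 in each of 251 alternatives run with edgeR or DESeq2 (other size factors, no filter, batch, sex, each library left out, doublets kept, another resolution, the listed genes allowed among variable genes, at least 500 genes per nucleus, thinning). Thinning left no listed gene to test in choroid plexus, committed precursors and mural nuclei. The 20 named log2 changes kept their direction in all 351 alternatives, with adjusted p from 0.357 to 1.00. These 20 were picked for a small p in the libraries that the alternatives reuse, so a kept direction gives no separate support. With the replicate block (batch) the medians were -0.12 in whole libraries, -0.20 in oligodendrocytes, -0.20 in excitatory neurons and -0.17 in astrocytes, and the block changed no call.

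Of 248 medians 9 moved by more than the spread between libraries. In oligodendrocytes the median was -0.32 at Leiden resolution 2, on other nuclei: the named class then held 159 of 1128 nuclei of the control female, 14 of 1688 of the batch 2 control, 65 of 797 of the batch 2 ANGPT2 male and 3 of 1544 of the batch 2 ANGPT2 female, which was left out. In fibroblasts it was 0.19 after thinning, with 2 genes left. Leaving out 1 library gave medians from -0.43 to 0.14 in choroid plexus, from -0.20 to 0.46 in committed precursors, from -0.13 to 0.050 in endothelial, from -0.48 to -0.062 in ependymal nuclei and from -0.28 to -0.14 in oligodendrocytes, and, within that spread, from -0.22 to -0.05 in whole libraries, from -0.12 to 0.09 in medium spiny neurons and from -0.15 to -0.05 in inhibitory neurons; the cause was not tested. The 7 genes above the next class in every library were 6 to 9 under the alternatives, and 5 to 7 were shared with the reported set. No gene passed the adjusted level test in any alternative. Depth limits the classes with few nuclei most.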
